A study of Ovis aries with 49 samples.

Results

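The WNT, BMP, TGF-beta and FGF signalling genes described here were 72 of the 10273 probe sets in the deposited table. Their gene symbols begin with WNT, FZD, SFRP, DKK, BMP, SMAD, TGFB, ACVR, INHB, GDF or FGF, and the rule left out 1 gene with such a prefix. Each gene had 1 probe set in that table, and a gene called measured below is one found there. Of the genes, 69 code for proteins, and 3 are non-coding (INHBA-AS1, FZD4-DT and FGF10-AS1). The arrays held total RNA from adipose tissue of sheep (Ovis aries), taken from 5 depots: epicardial fat around the heart, omental fat, perirenal fat around the kidney, sternal fat over the breastbone, and subcutaneous fat. Lambs were sampled at 28 days of age (5 arrays in each depot) or at 7 days of age (5 arrays in each depot, but 4 in subcutaneous fat), which gave 49 arrays. The ages are those of the age label, which the titles and source names match, whereas the description field gives all 49 arrays 1 shared text with an older age range. Twin lambs matched for sex within a pair were divided between the ages by chance, per the labels. Per the study's methods their mothers were Bluefaced Leicester cross Swaledale ewes. Nothing in the titles links the twins of a pair, so the comparisons of the ages took the arrays as unpaired. The methods also describe a supplement of canola oil given to some of the mothers in lactation. The labels used here tie no array to a diet. All 49 titles share a letter C that the labels do not explain, so no title sets a group apart by diet, but the diet itself is not known. Each sample title ends in a number that recurs across depots. Letters stand for these numbers here, from the lowest up, with H to O for the lambs of 28 days and A to G for those of 7 days. The labels do not define them as animals, so p-values measure the spread between arrays. For each age the methods describe the 5 depots as coming from 5 animals, so arrays of different depots can share a lamb. The main comparisons of depots took the arrays as independent. Per the methods, RNA came from a larger mass of tissue at 28 than at 7 days, so age and tissue mass cannot be told apart.

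In WNT signalling, secreted WNT proteins bind Frizzled (FZD) receptors and stabilise beta-catenin, and secreted SFRP and DKK proteins hold the signal back; in mouse cells WNT signals keep preadipocytes from becoming adipocytes. BMPs, GDFs, activins and TGF-betas bind pairs of type II and type I receptor kinases, which phosphorylate SMAD proteins that then enter the nucleus. The BMP branch passes its signal mainly through SMAD1 and SMAD5 and is known to promote white and brown fat formation, while the TGF-beta and activin branch passes it through SMAD2 and SMAD3 and is known for building matrix and restraining fat cell formation. Secreted FGFs bind receptor tyrosine kinases on the cell surface.

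Levels are log2 values, so a difference of 1 is a 2-fold difference, and they cannot be compared between probe sets. The arrays carry human probes, and 82.7% of all values and 88.4% of the values of the 72 genes were below 4, close to the lowest value of 2.49. Low expression and poor binding of sheep RNA to a human probe cannot be told apart at that level. Where 1 group sits there, the size of the difference is uncertain. Of the 72 genes, 8 had a mean of at least 4 (INHBC, ACVR1, ACVR1B, ACVR2A, ACVR2B, FGFR1, SMAD1 and SMAD2), against 1752 of all probe sets, and 54 had no array above 4.

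The arrays differed in ways that touch these genes. The mean over all probe sets was 3.27 in sternal fat at 28 days, against 3.40 to 3.42 in the other depots at that age, and it lay between 3.29 and 3.36 in the groups at 7 days. Of 12 adipocyte markers listed, 9 were measured, and the group means reached 4 for DGAT2 (8.86 to 10.6) and for UCP1 in epicardial, perirenal and sternal fat at 7 days, while FABP4 lay between 2.59 and 2.80, near the lowest value. Muscle creatine kinase CKM was above 4 in 9 sternal and subcutaneous arrays, and cardiac genes were high in epicardial fat. In such bulk samples, fewer cells of a type and less RNA per cell cannot be told apart.

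Across the 18 comparisons made with limma, 25 of the 72 genes passed the test (adjusted p of at most 0.05) at least once, 34.7% of them, against 41.3% of all probe sets, and 47 genes passed none (27 of these had an unadjusted p below 0.05 at least once). Omental fat held the most differences between the ages: 16 genes were higher at 28 than at 7 days, beside 14.6% of all probe sets that changed in either direction and 13.5% that rose. In subcutaneous fat 7 genes were higher at 28 days (9.25% of all probe sets changed). Epicardial fat had 2 such genes (background 5.84%), perirenal fat 2 (9.32%) and sternal fat 1 (6.37%), and all of these were higher at 28 days. None of the 72 genes was called lower at 28 days in any depot by this limma fit, where 0 to 3 per depot were lower at an unadjusted p below 0.05. With limma's trend and robust settings BMP2 and DKK2 were called lower in subcutaneous fat (-0.23 ± 0.07 and -0.36 ± 0.12, adjusted p = 0.0465 and 0.0482). Here and below, a gene that passed did so in the fit to the deposited values, unless another setting is named. Of the 47 genes that passed none there, 12 passed at least 1 comparison under another setting and 20 at least 1 when a single array was left out, 24 in all.

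**Figure D1:**
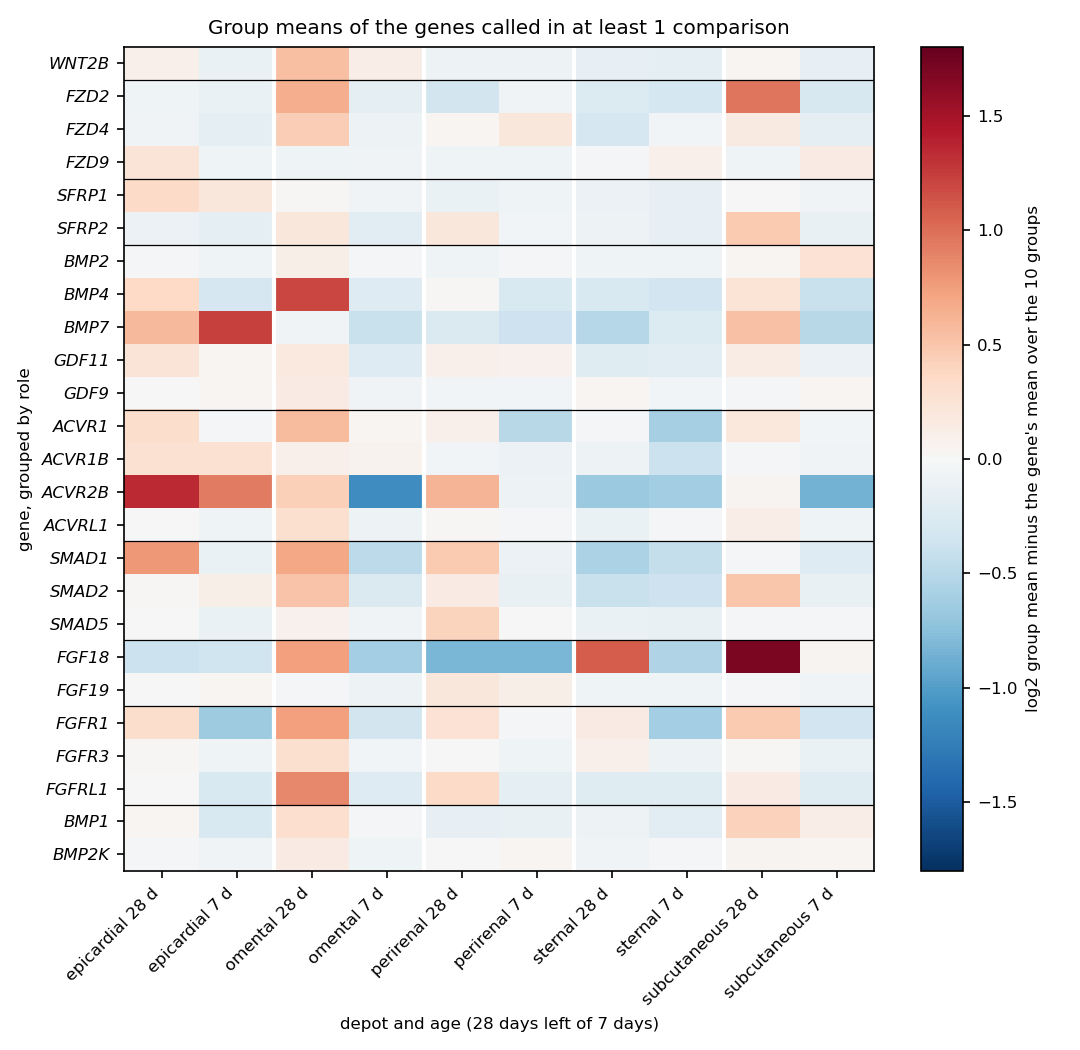
Mean log2 level of each of the 25 genes that passed the test at least once (rows, grouped by role) in each depot and age (columns), shown as the difference from that gene's mean over the 10 groups. BMP4, FGFR1 and FGFRL1 have their highest mean in omental fat at 28 days, ACVR2B in epicardial fat at 28 days, BMP7 in epicardial fat at 7 days, and FGF18 in subcutaneous fat at 28 days.

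**Figure D2:**
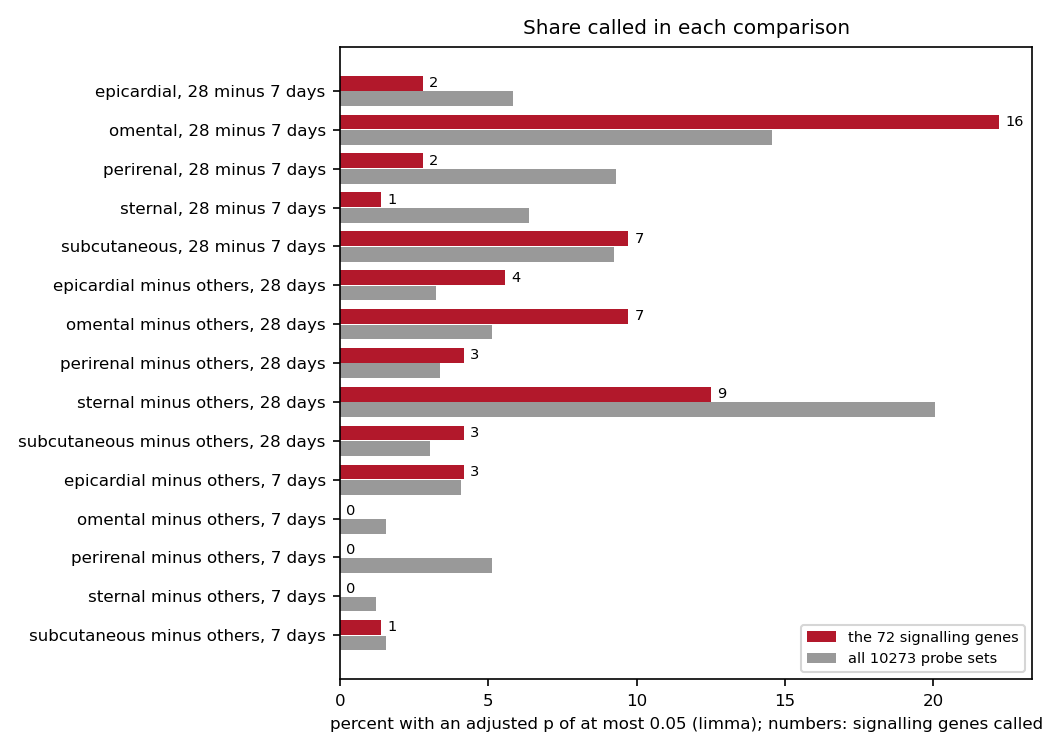
Percent of the 72 signalling genes (red) and of all 10273 probe sets (grey) with a limma adjusted p of at most 0.05 in each comparison, with the number of signalling genes printed at the bar. The red bar reaches 16 genes for omental fat between the ages, and it is shorter than the grey bar for sternal fat against the other depots at 28 days, with 9 genes.

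Among BMP and GDF ligands, 5 of 9 passed a test. BMP4, which commits mesenchymal precursors to the fat lineage in mouse cells, rose with age in omental, epicardial and subcutaneous fat. The omental arrays had BMP4 levels of 3.77, 3.94, 4.23, 4.32 and 5.40 at 28 days, against 2.85, 2.85, 2.85, 2.85 and 3.09 at 7 days. All 5 later arrays lay above all 5 earlier ones, and the earlier ones sat at the level most 7-day arrays shared. The difference was 1.44 ± 0.18 (SE; adjusted p = 3.64e-07). Epicardial fat ranged from 3.01 to 4.08 at 28 days and from 2.70 to 2.85 at 7 days, without overlap (as did 3.87% of all probe sets), a difference of 0.67 ± 0.18 (adjusted p = 0.0193) that was lost without replicate L at 28 days (adjusted p = 0.0942). Subcutaneous fat ranged from 2.90 to 3.77 at 28 days and from 2.49 to 2.85 at 7 days (difference 0.65 ± 0.19, adjusted p = 0.0261). Leaving out a single subcutaneous array ended that call in 4 cases, replicates M (adjusted p = 0.0547) and N (0.0808) at 28 days and replicates E (0.0540) and G (0.0967) at 7 days. In sternal fat BMP4 stood at 2.85 in each of the 5 arrays at 28 days and between 2.49 and 2.85 at 7 days.

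The change of BMP4 with age differed between depots (F test, adjusted p = 0.00286). It was 1.02 ± 0.21 larger in omental fat than the mean change of the other 4 depots (adjusted p = 0.00229) and 0.69 smaller in sternal fat (difference of changes -0.69 ± 0.21, adjusted p = 0.0358). At 28 days BMP4 was higher in omental fat than elsewhere, meaning the mean of the other 4 depots (1.12 ± 0.19, adjusted p = 0.000947) and lower in sternal fat (-0.74 ± 0.19, adjusted p = 0.00857), whereas at 7 days the F test over the depots gave an adjusted p of 0.525.

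BMP7, a BMP ligand that drives brown fat formation in mice, stood out in epicardial fat at 7 days. Its epicardial levels were 3.79, 4.86, 5.19, 5.73 and 6.35 there, against 3.15 to 4.50 in the 19 arrays of the other depots at 7 days. Only replicate C at 3.79 fell inside the range of the others, and the difference was 1.61 ± 0.24 (adjusted p = 0.00017). At 28 days the epicardial levels were 3.55, 3.88, 4.65, 5.11 and 5.51, and the difference from the other depots was 0.67 ± 0.19 (adjusted p = 0.0608). Subcutaneous fat, in contrast, had 4.32, 4.40, 4.50, 4.52 and 4.66 at 28 days and 3.15, 3.55, 3.55 and 3.58 at 7 days. These subcutaneous ages did not overlap, and the level was 1.02 ± 0.29 higher at 28 days (adjusted p = 0.0199, and 0.0712 without replicate A at 7 days). Its change with age was not the same in all depots (F test, adjusted p = 0.0334), a call that 5 of the 49 single arrays carried, since the adjusted p was 0.0546 and 0.0594 without epicardial replicates I and N and 0.0555 without subcutaneous replicate J at 28 days, and 0.0593 and 0.0695 without epicardial replicate G and subcutaneous replicate A at 7 days. In sternal fat at 28 days BMP7 was lower than elsewhere (-0.71 ± 0.19, adjusted p = 0.0125, and 0.0539 without sternal replicate M).

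BMP2, which like BMP4 acts through the BMP type I receptors, was higher in subcutaneous fat than elsewhere at 7 days (0.31 ± 0.06, adjusted p = 0.00499), with levels of 2.51 to 2.97 against at most 2.71 elsewhere. It was the only gene of the 72 that passed there (background 1.53%). GDF11, a ligand of the activin receptors, was higher at 28 than at 7 days in omental fat (2.89 to 3.33 at 28 days, 2.49 to 2.88 at 7 days, difference 0.42 ± 0.12, adjusted p = 0.0130) and lower in sternal fat than elsewhere at 28 days (-0.38 ± 0.10, adjusted p = 0.00801). GDF9, best known as an oocyte factor, was 0.22 ± 0.07 higher at 28 days in omental fat (adjusted p = 0.0361), and 7 of the omental arrays each ended that call when left out (adjusted p up to 0.224). BMP5, BMP6, BMP8B and GDF3 passed no comparison on the deposited values, and none of these 4 had an array above 4. With trend and robust settings BMP5 was 0.33 ± 0.09 higher in epicardial fat at 28 days (adjusted p = 0.0494).

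**Figure D3:**
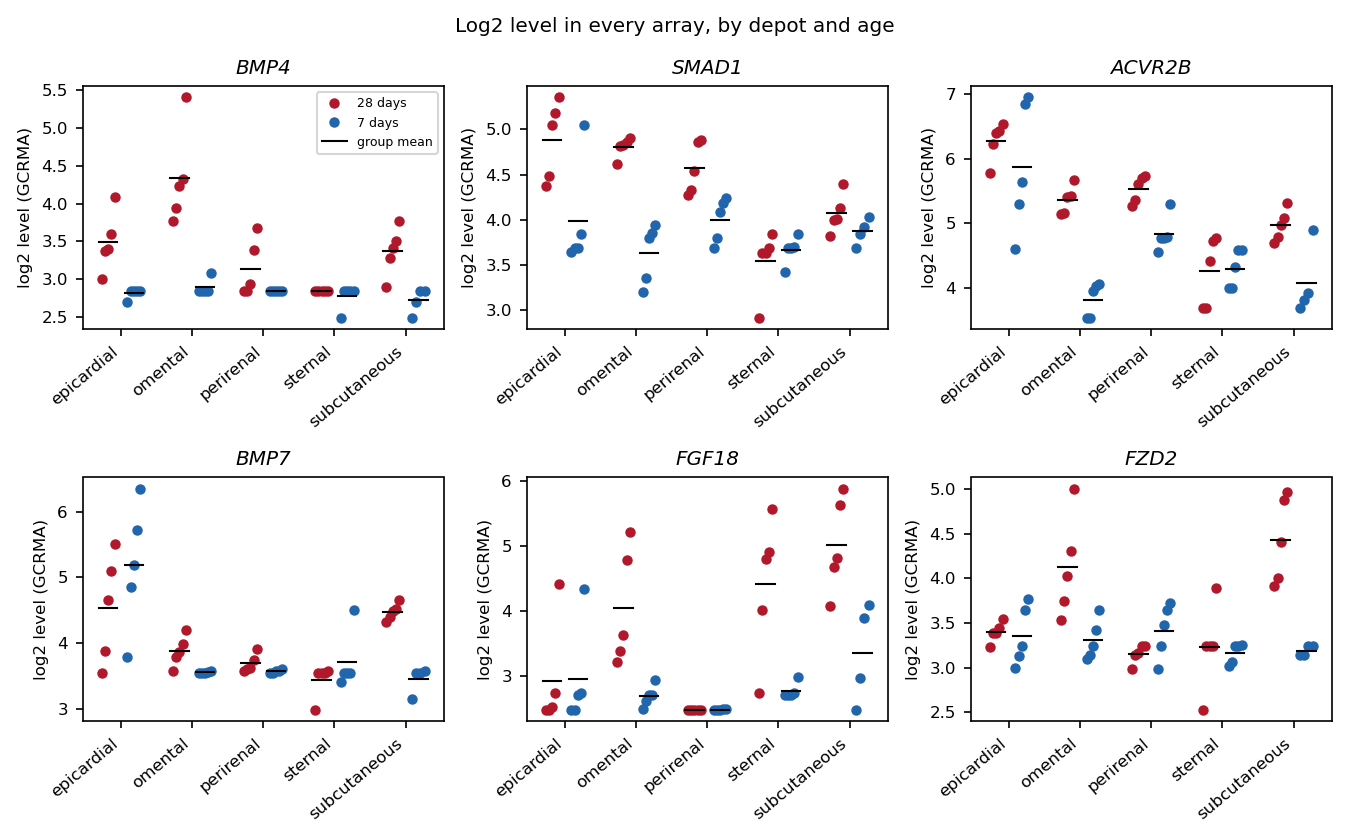
Log2 level of BMP4, SMAD1, ACVR2B, BMP7, FGF18 and FZD2 in each of the 49 arrays (points, 28 days in red left of 7 days in blue) by depot, with group means as black lines. BMP4 and SMAD1 do not overlap between the ages in omental fat, ACVR2B at 28 days is highest in epicardial and lowest in sternal fat, and FGF18 stays at 2.49 to 2.50 in each perirenal array.

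Receptors for these ligands passed in 4 of 9 cases. ACVR2B, a type II receptor shared by activins, myostatin and several BMPs, was highest in epicardial fat at both ages. At 28 days its epicardial levels were 5.78, 6.22, 6.40, 6.43 and 6.53, against 3.69 to 5.72 in the 20 arrays of the other depots, a difference of 1.24 ± 0.15 without overlap (adjusted p = 2.54e-05). Non-overlap of this kind was seen for 0.117% of all probe sets. At 7 days the epicardial arrays had 4.60, 5.30, 5.63, 6.85 and 6.95, against 3.53 to 5.29 elsewhere, a difference of 1.61 ± 0.27 (adjusted p = 0.000689) with 1 epicardial array inside the range of the others. In omental fat ACVR2B stood at 5.14, 5.16, 5.40, 5.42 and 5.67 at 28 days, against 3.53, 3.53, 3.94, 4.03 and 4.05 at 7 days. The omental ages were more than 1 log2 unit apart at their closest, and the difference was 1.54 ± 0.28 (adjusted p = 0.000102).

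Sternal fat was the low end for ACVR2B at 28 days, with 3.69, 3.69, 4.41, 4.72 and 4.76 against 4.69 to 6.53 in the other depots (-1.28 ± 0.15, adjusted p = 5.59e-06). In subcutaneous fat ACVR2B was 0.89 ± 0.30 higher at 28 than at 7 days (adjusted p = 0.0474), a call lost in 27 of the refits that left out 1 array (adjusted p up to 0.153). Between depots its change with age differed (F test, adjusted p = 0.0479), lost in 36 such refits (adjusted p up to 0.0867), and it was 1.05 ± 0.31 larger in omental fat than the mean of the others (adjusted p = 0.0444).

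ACVR1, a type I receptor that passes BMP and activin A signals, lay between 6.30 and 8.81 over the 49 arrays, clear of the lowest values. In perirenal fat it stood at 7.93, 8.11, 8.26, 8.29 and 8.33 at 28 days and 7.17, 7.32, 7.74, 7.84 and 7.85 at 7 days. The ages did not overlap, and the difference was 0.60 ± 0.19 (adjusted p = 0.0412). The call was lost without perirenal replicate J, K, M or N at 28 days (adjusted p = 0.0582, 0.0845, 0.0935 and 0.0855) and without replicate A or G at 7 days (0.151 and 0.118). At 28 days ACVR1 was higher in omental fat than elsewhere (0.42 ± 0.11, adjusted p = 0.0198, but 0.0712 and 0.0756 without omental replicates I and N). It was lower in sternal fat (-0.33 ± 0.11, adjusted p = 0.0294, but 0.109, 0.113 and 0.108 without sternal replicates I, J and O).

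ACVR1B, the type I receptor for activins, differed over the depots at 28 days (F test, adjusted p = 0.0245, and 0.0751 without epicardial replicate J) and at 7 days (adjusted p = 0.0485, lost in 19 refits that left out 1 array). Its epicardial mean was 6.76 ± 0.16 (SD, n = 5) at 28 days, 0.28 ± 0.07 (SE) above the other depots (adjusted p = 0.0252), and without epicardial replicates J, L and N in turn the adjusted p was 0.120, 0.0516 and 0.0516. ACVRL1, an endothelial type I receptor, averaged 3.46 ± 0.34 at 28 days and 3.08 ± 0.03 at 7 days in omental fat (SD, n = 5 each), a difference of 0.38 ± 0.10 (adjusted p = 0.00755, and 0.0576 without replicate N at 28 days). ACVR2A, the partner of ACVR2B among the activin type II receptors, passed no test with all arrays although its levels were well above the lowest values, with group means of 5.78 in sternal and 6.06 in subcutaneous fat, both at 28 days, as their extremes. BMPR1B, BMPR2, TGFBR2 and TGFBR3, receptors for BMPs and TGF-betas, stayed below 4 in each array and passed no test.

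Of the SMAD proteins, which carry the signal to the nucleus, 3 of 5 passed. SMAD1, the BMP-branch transducer, had omental levels of 4.61, 4.82, 4.83, 4.86 and 4.90 at 28 days, against 3.20, 3.35, 3.80, 3.86 and 3.94 at 7 days. The 5 later arrays were tightly grouped and clear of the earlier ones, and the difference was 1.18 ± 0.20 (adjusted p = 4.14e-05). Epicardial fat had 4.37, 4.48, 5.04, 5.18 and 5.36 at 28 days, against 3.64, 3.68, 3.69, 3.84 and 5.05 at 7 days, where only replicate C reached the later range (difference 0.91 ± 0.20, adjusted p = 0.00284). In perirenal fat SMAD1 did not overlap between the ages either, at 4.27 to 4.89 and 3.69 to 4.24, but the difference of 0.58 ± 0.20 missed the threshold (adjusted p = 0.0583); 6.32% of all probe sets lay higher without overlap there.

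Sternal fat showed no such difference for SMAD1, with 2.91, 3.63, 3.63, 3.69 and 3.84 at 28 days and 3.42, 3.69, 3.69, 3.70 and 3.84 at 7 days (-0.13 ± 0.20, adjusted p = 0.921). The change with age differed between depots (F test, adjusted p = 0.00689): it was 0.79 ± 0.22 larger in omental fat than the mean of the others (adjusted p = 0.0341) and 0.84 smaller in sternal fat (-0.84 ± 0.22, adjusted p = 0.0173). At 28 days SMAD1 was lower in sternal fat than elsewhere (-1.05 ± 0.15, adjusted p = 3.31e-05). It was higher in epicardial fat (0.64 ± 0.15, adjusted p = 0.0141, but 0.0559, 0.0686 and 0.0677 without epicardial replicates J, L and O) and in omental fat (0.54 ± 0.15, adjusted p = 0.0328, lost without any 1 of the 5 omental arrays at adjusted p of 0.0508 to 0.0825).

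SMAD2, the TGF-beta and activin transducer, had omental levels of 7.58, 7.59, 7.60, 7.80 and 7.81 at 28 days, against 6.19, 6.49, 7.13, 7.18 and 7.52 at 7 days. The omental arrays did not overlap between the ages (difference 0.77 ± 0.17, adjusted p = 0.00141). Subcutaneous fat had 7.50, 7.57, 7.58, 7.77 and 7.89 at 28 days, against 6.49, 7.13, 7.14 and 7.34 at 7 days, again without overlap (0.63 ± 0.18, adjusted p = 0.0214, but 0.0557 without replicate I at 28 days and 0.146 without replicate A at 7 days). At 28 days SMAD2 was higher in omental fat (0.45 ± 0.10, adjusted p = 0.00854) and in subcutaneous fat (0.43 ± 0.10, adjusted p = 0.0160, and 0.0637 without subcutaneous replicate I) than elsewhere, and lower in sternal fat, whose 5 arrays had 6.23, 6.73, 6.82, 6.87 and 7.11 (-0.71 ± 0.10, adjusted p = 3.42e-05). The change with age differed between depots at an adjusted p of 0.0339, and 8 single arrays each ended that call (adjusted p up to 0.0621).

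SMAD5, the second BMP-branch transducer measured, was higher at 28 days in perirenal fat, with a mean of 3.04 ± 0.21 at 28 days and 2.64 ± 0.20 at 7 days (SD, n = 5 each; difference 0.39 ± 0.10, adjusted p = 0.00666), and it exceeded the other depots at 28 days (0.42 ± 0.09, adjusted p = 0.00896). SMAD3, the other TGF-beta transducer, and SMAD6, an inhibitor of BMP signalling, passed no comparison. Their arrays did not overlap between the ages in subcutaneous fat, a pattern seen for 7.02% of all probe sets.

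**Figure D4:**
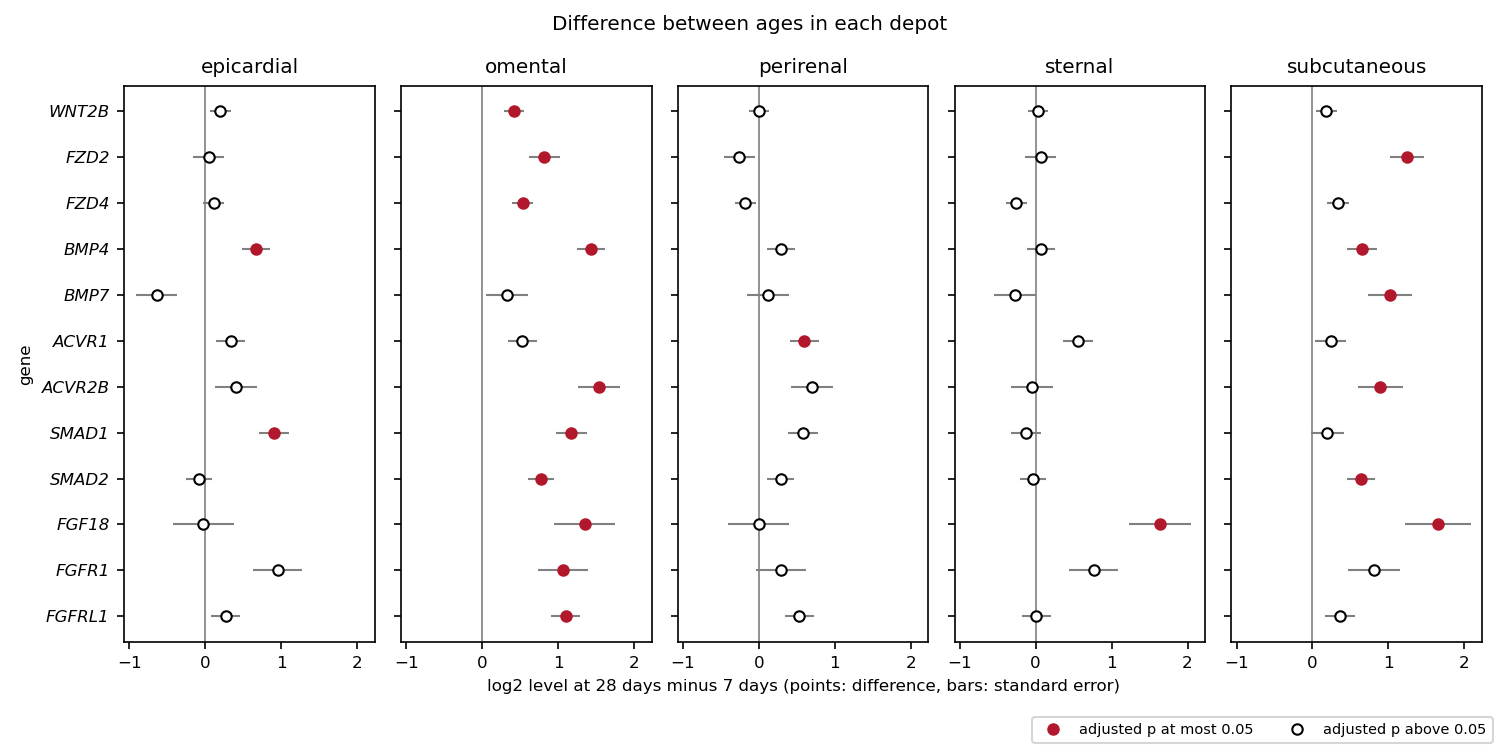
Difference in log2 level between 28 and 7 days (points, bars are standard errors) in each depot for the 12 genes whose levels are given array by array, with filled points where the limma adjusted p was at most 0.05. Omental fat has 10 filled points, all to the right of 0, while sternal fat has 1, FGF18 at 1.64.

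Of 10 WNT ligands, WNT2B was the only one to pass. It acts through beta-catenin and had omental levels of 2.99, 3.05, 3.27, 3.76 and 3.90 at 28 days, against 2.65 to 3.41 in the other depots at that age. The omental arrays were the highest group, with overlap, and the difference was 0.57 ± 0.11 (adjusted p = 0.00338). At 7 days the omental arrays had 2.65, 2.76, 2.83, 2.94 and 3.68, so that 1 array overlapped the later ones, and the rise of 0.42 ± 0.13 (adjusted p = 0.0269) was lost without omental replicate I or N at 28 days (adjusted p = 0.147 and 0.115) or without replicate D, E or G at 7 days (0.0834, 0.105 and 0.0680). WNT4, WNT5B, WNT7B, WNT8A, WNT8B, WNT9A, WNT10B, WNT11 and WNT16 passed no test on the deposited values, and apart from WNT7B, which exceeded 4 in 3 arrays, each stayed below 4 throughout.

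Frizzled receptors for the WNTs passed in 3 of 7 cases. FZD2 had subcutaneous levels of 3.92, 4.01, 4.41, 4.88 and 4.97 at 28 days, against 3.14, 3.14, 3.24 and 3.24 at 7 days. The ages were well apart there (1.24 ± 0.22, adjusted p = 0.000196). Omental fat had 3.53, 3.75, 4.03, 4.31 and 5.01 at 28 days, against 3.10, 3.14, 3.24, 3.42 and 3.65 at 7 days, with overlap between 3.53 and 3.65 (0.82 ± 0.21, adjusted p = 0.00437). In epicardial, perirenal and sternal fat the differences in FZD2 were 0.04 ± 0.21, -0.26 ± 0.21 and 0.06 ± 0.21, none of them past the threshold. The change with age differed between depots (F test, adjusted p = 0.00181) and was 1.08 ± 0.24 larger in subcutaneous fat than the mean of the others (adjusted p = 0.0123). At 28 days FZD2 was higher in subcutaneous fat than elsewhere (0.96 ± 0.19, adjusted p = 0.00674) and lower in sternal fat (-0.55 ± 0.19, adjusted p = 0.0482), where 19 of the refits without 1 array missed the threshold.

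FZD4, a Frizzled known for its part in vessel growth, had omental levels of 2.998, 3.10, 3.70, 3.82 and 3.86 at 28 days, against 2.87, 2.97, 2.99, 2.99 and 2.99 at 7 days. The later arrays lay just above the earlier ones or well above them, and the difference was 0.53 ± 0.13 (adjusted p = 0.00439). By the F test its change with age differed between depots (adjusted p = 0.0131), and the omental change exceeded the mean of the others by 0.53 ± 0.15 (adjusted p = 0.0339). Sternal fat at 28 days had 2.50, 2.70, 2.77, 2.85 and 2.93, below each of the 20 other arrays at that age, which started at 2.99 (-0.45 ± 0.11, adjusted p = 0.00545; 2.14% of all probe sets lay lower without overlap). The 5 sternal arrays at 7 days lay between 2.99 and 3.05, so that the sternal levels at 28 days were also below all of those at 7 days. This was the only such case between the ages among the 72 genes in sternal fat (2.20% of all probe sets), but the difference of -0.25 ± 0.13 missed the threshold (adjusted p = 0.352). Omental fat at 28 days was 0.49 ± 0.11 above the other depots (adjusted p = 0.00854, and 0.0522 without omental replicate N). FZD9 was 0.29 ± 0.08 higher in epicardial fat at 28 days (adjusted p = 0.0444), lost in 20 of the refits without 1 array, and FZD1, FZD3, FZD5 and FZD10 passed no test.

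Among the secreted WNT antagonists, 2 of 5 passed. SFRP2, a matrix-bound antagonist made by stromal cells, averaged 3.44 ± 0.36 at 28 days (SD, n = 5) and 2.84 ± 0.02 at 7 days (SD, n = 4) in subcutaneous fat (0.60 ± 0.12, adjusted p = 0.0013). Omental fat averaged 3.17 ± 0.25 at 28 days and 2.78 ± 0.10 at 7 days (SD, n = 5 each) without overlap (0.40 ± 0.12, adjusted p = 0.0150, and 0.0787 without replicate J at 28 days). SFRP1 was 0.29 ± 0.08 higher in epicardial fat than elsewhere at 7 days (adjusted p = 0.0366), a call that 10 single arrays could end. SFRP5, known from mouse fat, and DKK2 and DKK3 passed no test and stayed below 4.

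Of 8 FGF family genes, FGF18 and FGF19 passed. FGF18, a growth factor best known from bone and cartilage, had the second widest range of group means among the 72 genes. In subcutaneous fat it stood at 4.08, 4.67, 4.82, 5.62 and 5.88 at 28 days and 2.49, 2.97, 3.89 and 4.09 at 7 days, almost without overlap (1.65 ± 0.43, adjusted p = 0.0098, and 0.0624 without replicate G at 7 days). Sternal fat had 2.74, 4.02, 4.80, 4.91 and 5.57 at 28 days, against 2.71, 2.71, 2.71, 2.74 and 2.99 at 7 days. Only the sternal replicate J of the later age fell in the earlier range, and the difference was 1.64 ± 0.40 (adjusted p = 0.00708). Omental fat had 3.21, 3.39, 3.64, 4.78 and 5.22 at 28 days, against 2.50, 2.62, 2.71, 2.71 and 2.94 at 7 days, with no overlap (1.35 ± 0.40, adjusted p = 0.0178, but 0.0885 and 0.0625 without replicates I and O at 28 days).

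Perirenal fat had no FGF18 signal above the lowest value, at 2.49 in each array at 28 days and 2.49 to 2.50 at 7 days. At 28 days it was below the mean of the other depots (-1.61 ± 0.38, adjusted p = 0.0186), and subcutaneous fat was above it (1.55 ± 0.38, adjusted p = 0.0238, but 0.0849 and 0.0874 without subcutaneous replicates H and N). In epicardial fat FGF18 stayed at 2.49 to 2.74 except in replicate O at 28 days (4.41) and replicate G at 7 days (4.34). Between depots the change with age differed at an adjusted p of 0.0476, and 35 of the refits without 1 array ended that call. FGF19, an FGF that acts as a hormone on bile acid synthesis, was 0.23 ± 0.06 higher in perirenal fat than elsewhere at 28 days (adjusted p = 0.0453), lost in 20 of the refits without 1 array. FGF5, FGF6, FGF9, FGF11, FGF12 and FGF14 passed no test.

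Among FGF receptors, 3 of 5 passed, each of them between the ages in omental fat. FGFR1, the main FGF receptor of mesenchymal cells, had omental levels of 4.82, 4.90, 4.97, 5.18 and 5.35 at 28 days and 3.37, 3.60, 3.96, 4.28 and 4.67 at 7 days. The ages did not overlap (1.07 ± 0.32, adjusted p = 0.0201), but the adjusted p was 0.0510 without replicate N at 28 days and 0.0716 and 0.0560 without replicates D and G at 7 days. The other depots had differences of 0.95 ± 0.32 (epicardial), 0.29 ± 0.32 (perirenal), 0.76 ± 0.32 (sternal) and 0.81 ± 0.34 (subcutaneous), none past the threshold, and the test of a difference between depots gave an adjusted p of 0.713.

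FGFRL1, a receptor-like protein that binds FGFs but has no kinase domain, had omental levels of 3.51, 3.90, 4.01, 4.08 and 4.40 at 28 days, against 2.75, 2.87, 2.91, 2.92 and 2.92 at 7 days. The omental ages were clearly apart (1.10 ± 0.19, adjusted p = 5.12e-05). The omental change exceeded the mean of the other depots by 0.81 ± 0.21 (adjusted p = 0.0192). The F test of whether the change with age differed between depots gave an adjusted p of 0.0410, lost in 17 of the refits without 1 array. At 28 days omental fat lay 0.80 ± 0.20 above the other depots (adjusted p = 0.0226, but 0.0519, 0.0612 and 0.0973 without omental replicates J, M and N). Perirenal replicates I and J at 28 days reached 4.36 and 4.11, inside the omental range. FGFR3 was 0.33 ± 0.10 higher at 28 than at 7 days in omental fat (adjusted p = 0.0194), a call lost without replicate I, J or M at 28 days (adjusted p = 0.102, 0.0840 and 0.0586). FGFR2 and FGFR4 passed no test.

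None of the 6 TGF-beta and activin ligands passed a test in the limma fit to all arrays as deposited (4 had an unadjusted p below 0.05 in at least 1 comparison). INHBA, the subunit of activin A, nonetheless had the widest range of group means among the 72 genes, 2.87. In epicardial fat it stood at 3.96, 3.97, 4.29, 7.33 and 9.53 at 28 days and at 2.61, 3.33, 3.84, 5.47 and 8.27 at 7 days. At 28 days 2 arrays and at 7 days 1 array stood far above the rest, and the SDs were 2.52 at 28 days and 2.26 at 7 days (n = 5 each). Epicardial fat against the other depots gave 1.95 ± 0.66 at 28 days (adjusted p = 0.122) and 1.47 ± 0.60 at 7 days (adjusted p = 0.232). Subcutaneous fat had 3.63, 4.95, 5.29, 5.45 and 6.19 at 28 days, against 2.99, 2.99, 3.29 and 4.35 at 7 days (1.70 ± 0.86, adjusted p = 0.236). INHBC, the inhibin beta C subunit, was above 4 in each of the 49 arrays (4.37 to 6.86) and passed no test either. When dim probe sets (mean below 4) were left out, its F test over depots at 28 days gave an adjusted p of 0.0300. TGFB1, TGFB2, TGFB3 and INHBB stayed near the lowest values apart from 1 array of TGFB2 at 4.05.

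The other 5 proteins with such a prefix included BMP1, a metalloprotease that trims procollagens. At 28 days BMP1 differed over the depots (F test, adjusted p = 0.0118). Its highest mean at that age was 3.37 ± 0.45 in subcutaneous and its lowest 2.81 ± 0.03 in perirenal fat (SD, n = 5 each). BMP2K, a kinase, was 0.23 ± 0.08 higher at 28 than at 7 days in omental fat (adjusted p = 0.0392), lost without any 1 of 7 omental arrays (adjusted p up to 0.171). TGFBRAP1, FGFBP3 and FGFR1OP2 and the 3 non-coding RNAs passed no test on the deposited values. With trend and robust settings FGFBP3 was 0.08 ± 0.02 higher in epicardial fat at 28 days (adjusted p = 0.0151).

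At 28 days the F test over the depots called 15 of the 72 genes, 20.8%, beside 20.0% of all probe sets, and at 7 days 4 genes (ACVR1B, ACVR2B, BMP2 and BMP7) beside 8.16%, or 2 genes without subcutaneous replicate F or G. Sternal fat at 28 days differed in 9 genes, all lower than elsewhere (ACVR1, ACVR2B, BMP4, BMP7, FZD2, FZD4, GDF11, SMAD1 and SMAD2), beside 20.1% of all probe sets, of which 18.4% were lower. The share of the signalling genes was thus below the background share. Omental fat at 28 days differed in 7 genes, all higher (ACVR1, BMP4, FGFRL1, FZD4, SMAD1, SMAD2 and WNT2B), beside 5.12%, but in 3 without omental replicate N. Epicardial fat differed in 4, all higher (ACVR1B, ACVR2B, FZD9 and SMAD1), beside 3.24%. Perirenal fat differed in 3 genes (FGF19 and SMAD5 higher, FGF18 lower) beside 3.36%, and subcutaneous fat in 3 (FGF18, FZD2 and SMAD2, all higher) beside 3.04%. With the replicate number as a fixed block, 0 genes passed in perirenal and 0 in subcutaneous fat at that age. At 7 days epicardial fat differed in 3 genes, all higher (ACVR2B, BMP7 and SFRP1), beside 4.07%. No gene of the 72 passed limma's adjusted threshold at 7 days in omental fat (background 1.54%), perirenal fat (background 5.11%) or sternal fat (background 1.20%). At an unadjusted p below 0.05 there were 6, 6 and 4 such genes, beside 12.3%, 18.3% and 10.7% of all probe sets, and leaving out a single array brought at most 1 adjusted call in each. These comparisons of depots at 1 age share their arrays.

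The change with age differed between the depots for 9 genes, beside 9.17% of all probe sets, and these were ACVR2B, BMP4, BMP7, FGF18, FGFRL1, FZD2, FZD4, SMAD1 and SMAD2. Without omental replicate E or sternal replicate D at 7 days, or epicardial replicate N at 28 days, 5 genes passed. Against the mean change of the other depots, the omental change was larger for 5 (ACVR2B, BMP4, FGFRL1, FZD4 and SMAD1; background 3.97%), the subcutaneous change was larger for FZD2 (1.65%), and the sternal change was smaller for BMP4 and SMAD1 (5.52%). In BMP4, ACVR2B, SMAD1 and SMAD2, a ligand, a receptor and both kinds of transducer were each higher at 28 than at 7 days in omental fat, without overlap between the ages. The median difference over the 72 genes was 0.11 in omental fat, against 0.06 over all probe sets, and 12 of the 72 lay higher without overlap, beside 11.2% of all probe sets. Fitted on the 10 omental arrays alone, without the spread of the other groups, 5 of the 16 genes passed (ACVR2B, BMP4, FGFR1, FGFRL1 and SMAD1).

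Putting the arrays on a common distribution by quantile normalization moved several of these counts. In omental fat between the ages, 5 of the 16 genes passed after it (ACVR2B, BMP4, FGFRL1, SMAD1 and SMAD2), all higher at 28 days, and over all probe sets the calls split into 394 higher and 374 lower, in place of 1391 higher and 106 lower. In sternal fat against the other depots at 28 days, 3 of the 9 genes passed (ACVR2B, SMAD1 and SMAD2, all lower), WNT7B passed as higher (0.27 ± 0.06, adjusted p = 0.00488), and the split over all probe sets was 601 higher and 354 lower, in place of 170 higher and 1891 lower. In subcutaneous fat between the ages 4 of the 7 passed as higher (FGF18, FZD2, SFRP2 and SMAD2), with BMP2 as lower, and all probe sets split into 249 higher and 244 lower, in place of 789 higher and 161 lower. BMP4 then missed the threshold in sternal fat (-0.55 ± 0.18, adjusted p = 0.0533).

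Markers of other cell types moved with some of these groups. In omental fat, the summed level of 11 measured fibroblast and progenitor markers (of 12 listed) was 63.9 to 68.8 at 28 days and 59.5 to 63.2 at 7 days, that of 7 of 8 endothelial markers 20.6 to 21.7 and 18.7 to 19.5, that of 6 of 7 smooth muscle markers 21.2 to 23.98 and 17.5 to 20.3, and that of 4 of 11 mesothelial markers 13.7 to 16.5 and 11.7 to 14.8. Of the mesothelial markers, WT1 averaged 6.05 at 28 days and 5.08 at 7 days, while LRRN4 and KRT19 sat near the lowest value in both. Fibroblast and progenitor sums did not overlap between the ages in epicardial fat either (61.7 to 65.1 at 28 days, 56.5 to 59.6 at 7 days), nor in sternal fat (60.0 to 68.9 at 28 days, 52.1 to 58.9 at 7 days). Smooth muscle sums were 20.7 to 22.7 at 28 days and 17.2 to 19.8 at 7 days in sternal fat, without overlap. Mesothelial sums were 13.6 to 15.1 at 28 days and 10.5 to 13.4 at 7 days in epicardial fat, again without overlap. The endothelial sums there were 19.9 to 21.1 at 28 days and 18.8 to 19.6 at 7 days, also without overlap. No endothelial marker reached a mean of 4 in any group. Cartilage markers, 4 of 8 measured, summed to at most 13.6 in subcutaneous fat at 28 days and 13.5 at 7 days, against at most 11.4 in the other groups. The cartilage collagen COL2A1 stood at 2.60 to 5.15 in subcutaneous fat at 28 days and 2.51 to 5.97 at 7 days. The part of these markers in the omental differences, in the age differences of BMP4 and SMAD1 in epicardial fat and of FGF18 in sternal fat, and in the FGF18 levels of subcutaneous fat was not tested. In epicardial fat, 9 of 15 cardiac markers were measured and their summed level was 24.5 to 80.6 at 28 days and 61.2 to 82.7 at 7 days. ACVR2B was highest at 28 days (6.53) and BMP7 lowest (3.55) in the same epicardial array, replicate I, whose CKM of 2.76 was near the lowest value, against 6.82 to 10.53 in the other 4 epicardial arrays of that age. At 7 days both genes were highest in epicardial replicate D (6.95 and 6.35), whose CKM was 11.2. The part of heart muscle in the epicardial levels of ACVR2B and BMP7 was not tested.

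CKM was above 4 in 3 sternal arrays at 28 days (4.51, 11.3 and 12.7) and 1 at 7 days (8.29), and in 2 subcutaneous arrays at 28 days (4.11 and 7.11) and 3 at 7 days (6.35, 11.7 and 12.9). The summed level of 12 measured skeletal muscle markers (of 16 listed) reached 86.2 in sternal and 48.2 in subcutaneous fat at 28 days and 49.7 and 91.2 at 7 days, against 32.1 to 33.3 in omental and perirenal fat. Without these 9 arrays, 5 of the 72 genes were lower in sternal fat than elsewhere at 28 days (ACVR2A, ACVR2B, FZD2, SMAD1 and SMAD2), TGFB3 was higher, and the omental comparison of the ages, which keeps all its own arrays, called 15 genes. The subcutaneous comparison of the ages then rested on 3 arrays at 28 days and 1 array at 7 days, whose spread was taken to be that of the other groups, and none of its 7 genes passed, while BMP6, FGF9 and WNT9A were lower.

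Other genes of the pathways, from lists of co-receptors, transducers, antagonists and known response genes, moved as follows in omental fat between the ages, where 13.5% of all probe sets were higher and 1.03% lower. Of 14 measured WNT co-receptors and receptor regulators 3 passed, all higher at 28 days: the co-receptors LRP6 (0.57 ± 0.18) and ROR1 (0.27 ± 0.07) and WLS (0.51 ± 0.14), which carries WNT proteins to the cell surface. Of 30 WNT transducers 3 were higher, the kinases CSNK1E and NLK and the scaffold APC (0.23 ± 0.08), named after its value was seen. Another 2 were lower, CSNK1A1 (-0.69 ± 0.23) and GSK3B (-0.69 ± 0.19). APC, CSNK1A1 and GSK3B all belong to the complex that degrades beta-catenin. On the deposited values APC was higher and the other 2 were lower, but APC did not pass after quantile normalization. The complex as a whole was not tested. Of 9 BMP and activin antagonists and modulators 2 were higher, FSTL1 and the BMP antagonist CHRDL1, which averaged 4.89 ± 0.22 at 28 days and 4.07 ± 0.29 at 7 days (SD, n = 5 each; 0.83 ± 0.17, adjusted p = 0.000576). Of 29 genes of TGF-beta activation and accessory function 6 were higher and 1, the ubiquitin ligase SMURF2, was lower. LTBP4, which tethers latent TGF-beta in the matrix, was among those higher (0.89 ± 0.16, adjusted p = 8e-05), as was the kinase MAP3K7 (0.83 ± 0.15, adjusted p = 7.02e-05). Of 30 FGF co-receptors, transducers and feedback genes 6 were higher, with the transcription factor ETV1 at 1.02 ± 0.22 (adjusted p = 0.000821) and the feedback inhibitor SPRY1 at 0.65 ± 0.15 (adjusted p = 0.00176). After quantile normalization 1 of the 14, 0 of the 9, 3 of the 29 and 2 of the 30 FGF genes were higher, while 1 of the 9, 1 of the 29 and 2 of the 30 FGF genes were lower. Of the 30 WNT transducers the 2 lower ones passed.

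Among 22 measured transcripts known to follow these pathways, 5 passed in omental fat between the ages, all higher at 28 days, beside 13.5% of all probe sets that were higher. ID2 and ID4, which BMP signals induce in many cells, were 0.74 ± 0.19 (adjusted p = 0.00511) and 1.02 ± 0.28 (adjusted p = 0.00892) higher, TAGLN, a smooth muscle and TGF-beta response gene, 1.26 ± 0.26 (adjusted p = 0.000482), and the collagen gene COL3A1 0.60 ± 0.21 (adjusted p = 0.0465). The fifth was ID3, named after its value was seen (0.74 ± 0.15, adjusted p = 0.000433), and after quantile normalization ID3 and TAGLN passed. TAGLN is also on the list of smooth muscle markers, and COL3A1 on that of fibroblast and progenitor markers. The part of such cells in these differences was not tested. ID4 averaged 6.22 ± 0.63 in omental fat at 28 days (SD, n = 5), 1.48 ± 0.21 above the other depots (adjusted p = 0.00018).

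In sternal fat at 28 days, 4 of the 22 response transcripts were lower than elsewhere, close to the 18.4% of all probe sets that were lower. Among them were ID2 (-0.60 ± 0.16) and ID4 (-0.79 ± 0.21), and none of the 4 passed after quantile normalization. In the fit to the deposited values 2 were higher, beside 1.65% of all probe sets, the collagen genes COL1A1 (2.07 ± 0.39, adjusted p = 0.000764) and COL1A2 (0.65 ± 0.18, adjusted p = 0.0129). Of the 30 WNT transducers 11 passed there, all lower, with NLK at -1.76 ± 0.21 (adjusted p = 5.26e-06) and the kinase TNIK at -1.24 ± 0.19 (adjusted p = 0.000108). In perirenal fat at 28 days 7 of the 22 response transcripts passed, all lower, with COL1A1 at -2.87 ± 0.39 (adjusted p = 0.000156), the matrix gene FN1 at -2.04 ± 0.27 (adjusted p = 0.000108), POSTN at -1.04 ± 0.26 and ID4 at -0.77 ± 0.21, where 0.487% of all probe sets were lower. The summed level of the fibroblast and progenitor markers, a list that also holds COL1A1 and COL3A1, was 55.4 to 60.7 in perirenal fat at that age, against 60.0 to 68.9 in the other depots. Its part in these differences was not tested.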

How the data were processed

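Total RNA of sheep adipose tissue was hybridised by the authors to human U133 Plus expression arrays, 1 array per sample. The deposited table holds log2 values per probe set that the authors made with GCRMA, run through the affy package (versions not given in the sources used here), which corrects background, normalizes and summarises probes. Every array column was used. Genes were named from GEO's platform annotation, which gives 1 symbol for 9780 of the 10273 probe sets, several for 6 and none for 487; the last 2 kinds could not be members. Human probes bind sheep RNA unevenly, so levels of different probe sets are not compared, and the number of arrays limits the precision.

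The 72 genes and the gene lists were chosen with earlier results of these data known. All 10273 probe sets were fitted with limma 3.58.1 (lmFit and eBayes, R 4.3.3), with Benjamini-Hochberg adjustment over all of them within each comparison and a threshold of 0.05. Comparisons between depots used the arrays of 1 age (25 at 28 days, 24 at 7 days); a depot was set against the mean of the other 4. Comparisons of the ages, and the test of whether the change with age differed between depots, used all 49 arrays and 1 spread per probe set. SE is the standard error of that fit. Values in every array are given for the 12 genes with the widest range of group means among those passing an F test over depots or a comparison of the ages; of each gene list at most 4 passing genes with the widest range are named. The fits were tested on simulated data. Alternatives were quantile normalization, a filter on the mean over all arrays (4 or more), limma's trend and robust settings, the replicate number as a fixed or random block, only the 2 ages of a depot, leaving out 9 arrays of sternal and subcutaneous fat whose CKM exceeded 4, and leaving out each array in turn.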

Additional observations from a re-analysis of the deposited data

Results flagged for a closer look

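For the 12 genes given array by array, each of 120 groups of 4 or 5 arrays was checked for an array far from the rest, meaning that its gap to the nearest other array filled most of the range of the group. Chance flags about 5 in 100 such groups, and 24 were found, many of them where the other arrays share 1 value near the lowest. Among FGF18 levels, epicardial replicate O at 28 days (4.41), epicardial replicate G at 7 days (4.34) and sternal replicate D at 7 days (2.99) stood above their groups. BMP7 was low in sternal replicate M at 28 days (2.99) and subcutaneous replicate A at 7 days (3.15), and high in sternal replicate F at 7 days (4.50). BMP4 was high in omental replicate C (3.09) and low in epicardial replicate E (2.70) and sternal replicate E (2.49), all at 7 days.

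SMAD1 was low in omental replicate N (4.61) and sternal replicate I (2.91) at 28 days, and high in epicardial replicate C at 7 days (5.05). ACVR1 was low in sternal replicate G at 7 days (6.30). FGFRL1 was low in sternal replicate J at 28 days (2.82), in omental replicate E (2.75) and subcutaneous replicate E (2.81) at 7 days, and slightly high in perirenal replicate A at 7 days (2.96). FZD4 stood apart at 7 days in omental replicate A (2.87), subcutaneous replicate A (2.50) and sternal replicate D (3.05). WNT2B was high in epicardial replicate O (3.41) and subcutaneous replicate H (3.17) at 28 days and omental replicate C at 7 days (3.68), and low in epicardial replicate E at 7 days (2.66).

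For 9 genes the change between 28 and 7 days differed between the 5 depots by limma's F test, with adjusted p of 0.00181 for FZD2, 0.00286 for BMP4, 0.00689 for SMAD1, 0.0131 for FZD4, 0.0334 for BMP7, 0.0339 for SMAD2, 0.0410 for FGFRL1, 0.0476 for FGF18 and 0.0479 for ACVR2B.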

How the results depend on the processing

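Of 86 calls of single genes in the comparisons, 47 were kept in every refit without 1 array while 39 were lost in at least 1. Calls of F tests have no direction, and among the other calls no direction was reversed under any alternative. Quantile normalization kept 47 of the 86, trend and robust settings 83 (with calls of BMP2, BMP5, DKK2 and FGFBP3 added), and the refit that left out 9 arrays of sternal and subcutaneous fat for a CKM level over 4 kept 48. Of the calls that could be tried, the filter on a mean of at least 4 kept 30 of 30 and the fit of only the 2 ages of a depot 7 of 28. The cause of these losses was not tested, except that the last fit has fewer arrays and the filter tests fewer genes.

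Quantile normalization gave 2 genes in epicardial, 4 in omental and 4 in sternal fat against the other depots at 28 days, 5 between the ages in omental and 1 in perirenal fat, and 3 whose change with age differed between depots. With the filter on a mean of 4 or more, the F test over depots called 6 at 28 days and 2 at 7 days. Against the other depots there were then 3 in omental, 0 in perirenal, 4 in sternal and 1 in subcutaneous fat at 28 days, and 1 in omental, 1 in sternal and 0 in subcutaneous fat at 7 days; between the ages 5 in omental and 2 in subcutaneous fat; and 3 for the difference of changes.

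Without the 9 arrays with high CKM, the F test called 7 at 28 days. The depot counts were 2 in epicardial and 0 in subcutaneous fat at 28 days, and those between the ages 1 in perirenal and 2 in sternal fat. Subcutaneous fat kept only 1 array at 7 days. Counts are therefore not given for the depots at 7 days or for the subcutaneous ages. In that array BMP6 was 1.17 above the mean of the other depots at 7 days. Only the 2 ages of a depot gave 0 in epicardial, 5 in omental, 0 in sternal and 1 in subcutaneous fat.

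Leaving out each array in turn gave 14 to 18 genes for the F test at 28 days and 2 to 6 at 7 days. At 28 days the range was 3 to 6 in epicardial, 3 to 8 in omental, 2 to 4 in perirenal, 7 to 11 in sternal and 2 to 4 in subcutaneous fat. At 7 days it was 2 to 4 in epicardial, 0 to 1 in omental, perirenal and sternal, and 1 to 2 in subcutaneous fat. Between the ages it was 1 to 4 in epicardial, 12 to 17 in omental, 1 to 3 in perirenal, 1 to 3 in sternal and 5 to 8 in subcutaneous fat, and 5 to 9 for the difference of changes.

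Same-numbered arrays of different depots deviated together only weakly (median correlation of deviations 0.057 at 28 days and 0.046 at 7 days, 12 of 39 and 6 of 33 pairs over 0.1). Still, 14 of 22 and 10 of 24 arrays correlated best with their own number. Same-numbered pairs were only 39 beside 211 other pairs at 28 days and 33 beside 197 at 7 days. The main fit did not use the numbers for pairing, and these values do not show that the arrays are independent. A replicate block kept 36 of the 49 calls between depots that it could try and gave 0 genes in perirenal and 0 in subcutaneous fat at 28 days, and 14 and 3 for the F tests at 28 and 7 days; no number occurs at both ages, and as a random effect (correlation 0.0106) it changed none of 37 calls. With 88.4% of the values of these genes below 4, a probe set that passed no test may have been too dim to show a difference.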

Other observations

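In subcutaneous fat at 28 days, collagen COL1A1 (1.77 ± 0.39 SE, adjusted p = 0.0131) and the matrix gene POSTN (1.48 ± 0.26, adjusted p = 0.00214) were higher than elsewhere in the limma fit. The activin antagonist FST was also higher there (1.05 ± 0.20), and so was GPC3, a cell surface proteoglycan that binds WNT and FGF ligands (0.74 ± 0.11). In the same fat FST was 1.22 ± 0.37 and GPC3 0.81 ± 0.13 higher at 28 than at 7 days. In epicardial fat at 28 days the WNT pathway kinase TNIK was 1.47 ± 0.19 higher than elsewhere (adjusted p = 5.35e-05), and in perirenal fat CHRDL1 was 0.75 ± 0.14 higher (adjusted p = 0.00238).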
